A study of Mus musculus with 6 samples.

Results

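The wound and stress keratins are Krt6a, Krt6b, Krt16, Krt17 and Krt75, 5 genes taken by their symbols from the 24453 gene symbols of the count files. All 5 passed the filter on low counts, as did 14890 genes in all. The samples were interfollicular epidermis from back skin of newborn mice at postnatal day 0, sorted by flow cytometry as EpCAM-positive, Sca1-positive cells with high α6-integrin, a gate meant to enrich epidermal progenitors. Bulk RNA was sequenced from 3 libraries of Ring1a/b dKO mice, in which both catalytic RING subunits of Polycomb repressive complex 1 (PRC1) were targeted, and from 3 libraries of Control mice. The labels give neither the Cre driver, the strain, the sex nor the alleles that Control mice carried, and leave unsaid whether each library came from an animal of its own. The p-values therefore measure the spread between these libraries, which may in part be technical. In bulk RNA, fewer cells that express a gene and less RNA per expressing cell cannot be told apart.

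Keratins form the intermediate filaments of epithelial cells, and each filament is built from pairs of a type II and a type I chain. Basal keratinocytes of resting interfollicular epidermis use the Krt5 and Krt14 pair. Keratinocytes at a wound edge switch on the type II chains Krt6a and Krt6b with the type I chains Krt16 and Krt17, which are otherwise made mainly in hair follicles, nails and oral epithelium. Krt75 is a type II keratin of the companion layer, the single sheet of cells between the outer and inner root sheath of the hair follicle. PRC1 is a chromatin complex that marks histone H2A with ubiquitin and is known for keeping developmental genes silent.

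Krt6a and Krt6b are neighbouring genes of nearly identical sequence, and reads of 100 bases cannot always tell them apart. Their coding sequences were 97.8% identical over 1659 aligned bases, with 37 differences. The first pair of 100-base stretches shows exon 1 sequence in which a read could belong to either gene, and the second pair the stretch of exon 1 with the most differences among coding windows that lie within 1 exon. All are from GRCm38 with GENCODE M21 transcripts, lie on the minus strand, are written 5′ to 3′, and carry capitals at the bases that differ between the 2 genes.
Krt6a, chr15:101694116-101694215: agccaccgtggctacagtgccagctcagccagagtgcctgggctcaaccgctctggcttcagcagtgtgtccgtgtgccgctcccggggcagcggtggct
Krt6b, chr15:101680091-101680190: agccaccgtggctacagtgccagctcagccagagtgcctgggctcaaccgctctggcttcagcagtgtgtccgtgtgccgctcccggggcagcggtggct
Krt6a, chr15:101693826-101693925: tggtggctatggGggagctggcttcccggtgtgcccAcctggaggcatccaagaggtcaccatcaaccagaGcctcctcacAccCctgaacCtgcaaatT
Krt6b, chr15:101679801-101679900: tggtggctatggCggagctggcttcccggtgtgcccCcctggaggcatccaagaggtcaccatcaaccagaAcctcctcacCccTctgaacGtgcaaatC

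Across the whole Krt6a transcript, 643 of 2179 windows of 100 bases (29.5%) were identical to a stretch of Krt6b, and 53.7% lay within 2 mismatches of one. For Krt6b the shares against Krt6a were 30.1% and 54.8% of 2136 windows. The 3′ end of the transcript, beyond the coding sequence, differed widely between the 2 genes, so reads from there could be told apart. Krt6a also shared 50 windows (2.29%) with Krt5, the most abundant keratin of these cells, and 4.22% with the predicted gene Gm5478, which had 9, 6 and 13 counts in the libraries labelled dKO 1, 2 and 3 and 0, 1 and 1 counts in those labelled Control 1, 2 and 3. Krt75 shared no window with another gene, even with 2 mismatches allowed.

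**Figure D1:**
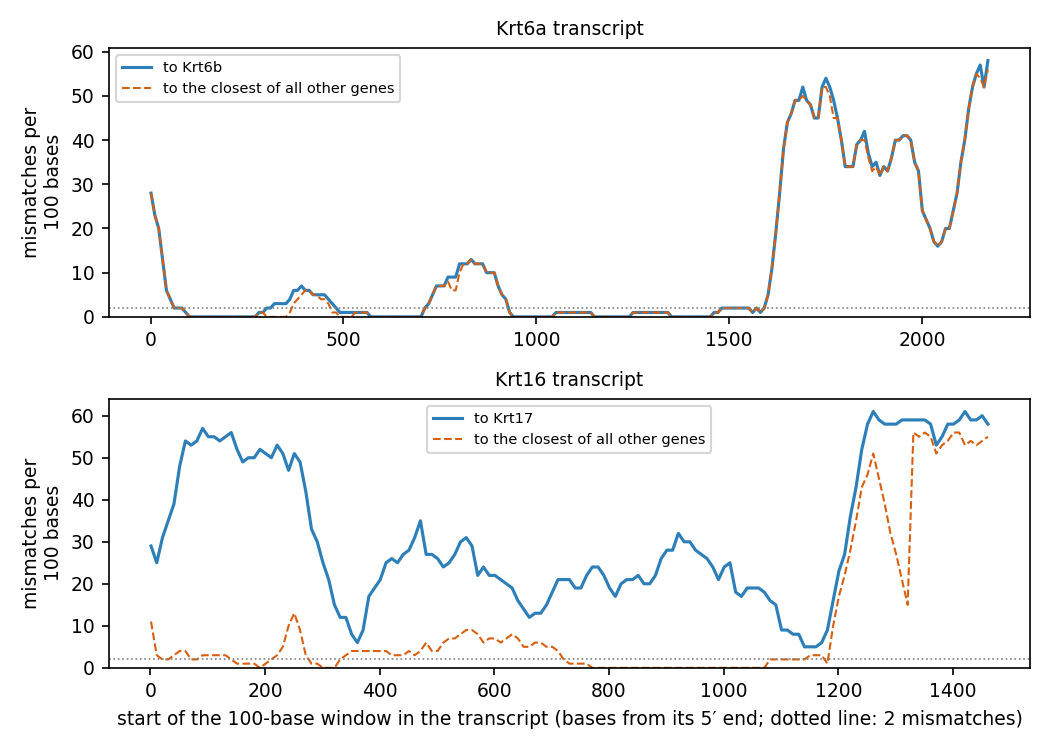
Number of mismatches per 100 bases (y axis) between each 100-base window of the Krt6a (top) or Krt16 (bottom) transcript and its nearest match in the partner gene (solid line) or in all other annotated genes (dashed line), by the window's start in bases from the transcript's 5′ end (x axis). Long stretches of Krt6a lie at or under the dotted line of 2 mismatches to Krt6b, whereas Krt16 stays above it against Krt17 and falls to 0 only against another annotated gene.

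The type I pair is less alike. The coding sequences of Krt16 and Krt17 were 75.8% identical, and no window of Krt17 was identical to another gene. The exon 6 stretch with the fewest differences (5) and the exon 1 stretch with the most (30) are shown for comparison, with the same build, strand and use of capitals.
Krt16, chr11:100246652-100246751: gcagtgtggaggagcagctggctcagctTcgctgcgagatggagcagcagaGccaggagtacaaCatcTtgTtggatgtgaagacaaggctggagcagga
Krt17, chr11:100257475-100257574: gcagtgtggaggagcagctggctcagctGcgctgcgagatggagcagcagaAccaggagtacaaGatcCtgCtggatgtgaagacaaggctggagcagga
Krt16, chr11:100248520-100248619: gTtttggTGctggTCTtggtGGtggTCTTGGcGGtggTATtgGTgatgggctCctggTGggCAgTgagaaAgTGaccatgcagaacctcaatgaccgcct
Krt17, chr11:100260682-100260781: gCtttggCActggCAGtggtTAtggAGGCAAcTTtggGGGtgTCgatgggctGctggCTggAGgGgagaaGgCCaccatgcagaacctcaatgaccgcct

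Krt16 nevertheless had identical windows elsewhere, 21.1% with the annotated pseudogene Gm11597, whose symbol the count files do not list, and 3.14% with Krt14. How the counting treated reads that match several genes, and whether it used strand, is not stated in the labels or files. Predicted genes on the opposite strand overlap Krt6a, Krt6b and Krt75 in the annotation, and none of their symbols is in the count files.

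The libraries held 18951665 to 31187270 counts. The targeted genes were checked first. Ring1, which encodes RING1A, had 1.66, 5.20 and 14.2 CPM (counts scaled to library size and by the trimmed mean of M values) in the libraries labelled dKO 1, 2 and 3 and 30.9, 17.1 and 3.90 CPM in those labelled Control 1, 2 and 3. The replicate 3 libraries thus go against their labels for Ring1, and the group difference did not pass the test (log2 fold change −1.29 ± 0.83, SE; edgeR adjusted p = 0.389, Benjamini-Hochberg). Rnf2, which encodes RING1B, did not pass either (log2 fold change 0.21, edgeR adjusted p = 0.575), and since the labels do not name the deleted exons, total counts are a weak check. Xist, the RNA of the inactive X chromosome, was at 6133, 4736 and 4.48 CPM in the libraries labelled dKO 1, 2 and 3 and at 10.5, 6.91 and 1757 CPM in those labelled Control 1, 2 and 3. The second principal component (18.5% of the variance) set both replicate 1 libraries apart from the other 4. Results for the 5 keratins are therefore given also without the replicate 1 libraries and without the replicate 3 libraries.

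Krt6a was the member that passed the test, and it was far higher in Ring1a/b dKO epidermis. The gene, at 101689910 to 101694307 on the minus strand of chromosome 15, had 1787, 1529 and 1224 CPM in the libraries labelled dKO 1, 2 and 3, against 4.73, 104 and 76.5 CPM in those labelled Control 1, 2 and 3. Every dKO library stood well above every Control library, and the library labelled Control 1 was far below the other Control libraries. The means were 1513 ± 282 CPM in dKO and 61.7 ± 51.2 CPM in Control libraries (SD, n = 3 each), a 24.5-fold difference of means. The fitted log2 fold change was 4.62 ± 0.90 (SE; 95% interval 2.56 to 6.67), with an adjusted p of 0.0143 (edgeR quasi-likelihood test, Benjamini-Hochberg over all tested genes). Of all tested genes, 7.17% were called higher in dKO libraries by this rule, 2.98% lower and 10.2% in either direction. Krt6a ranked 30th among all genes by mean CPM in dKO libraries and 3295th in Control libraries.

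The Krt6a call did not hold without both replicate 3 libraries, whose Ring1 counts go against their labels. With replicates 1 and 2 of each group alone, the log2 fold change was 4.92 and the edgeR adjusted p was 0.0798; 2.37% of genes were called higher in that fit and 0 of the 5 keratins, of which 3 had an unadjusted p under 0.05. Without the library labelled dKO 3 alone it was 4.75 and passed (edgeR adjusted p = 0.0290), and without that labelled Control 3 alone it was 4.80 and did not (edgeR adjusted p = 0.0523). Without the library labelled Control 1 the log2 fold change was 4.07 and the edgeR adjusted p was 0.00134. Among libraries with high Xist, Krt6a was at 1787 and 1529 CPM in those labelled dKO 1 and 2 and at 76.5 CPM in that labelled Control 3, and among those with low Xist it was at 1224 CPM in that labelled dKO 3 and at 4.73 and 104 CPM in those labelled Control 1 and 2.

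Krt6b had the same order of groups at a lower level and did not pass the test. The gene, at 101676023 to 101680287 on the minus strand of chromosome 15, had 174, 288 and 178 CPM in the libraries labelled dKO 1, 2 and 3, against 0.263, 36.8 and 30.6 CPM in those labelled Control 1, 2 and 3. The groups did not overlap, and the library labelled Control 1 held 7 Krt6b counts. The means were 213 ± 64.4 CPM in dKO and 22.5 ± 19.5 CPM in Control libraries (SD, n = 3 each). The fitted difference was 3.24 ± 1.09 on the log2 scale (SE; 95% interval 0.77 to 5.71), at an edgeR adjusted p of 0.101 (Benjamini-Hochberg). Without the library labelled Control 1 the fold change was smaller, 2.66 on the log2 scale, and passed (edgeR adjusted p = 0.00392).

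Because reads may be split between them, Krt6a and Krt6b were also tested as 1 summed gene. The sum passed, at 4.36 ± 0.95 on the log2 scale (SE; edgeR adjusted p = 0.0218, Benjamini-Hochberg). Krt6b made up 8.87%, 15.8% and 12.7% of the summed counts in the libraries labelled dKO 1, 2 and 3, and 5.26%, 26.1% and 28.6% in those labelled Control 1, 2 and 3. The groups overlapped through the library labelled Control 1, where the share rests on 133 counts (95% Wilson interval 2.57% to 10.5%, counting error only). The share was 12.5% ± 3.49 in dKO and 19.99% ± 12.8 in Control libraries (SD, n = 3 each), a difference of −7.51 percentage points with an exact two-sided permutation p of 0.4, where the smallest possible p was 0.1. Without the library labelled Control 1 the difference was −14.9 points, at an exact permutation p of 0.1. That is also the smallest p that 3 against 2 libraries can give, so this test could not pass.

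Krt75, the companion layer keratin, was scarce. The gene, at 101563345 to 101573904 on the minus strand of chromosome 15, had 8.03, 4.63 and 1.14 CPM in the libraries labelled dKO 1, 2 and 3, and 2.14, 3.10 and 1.16 CPM in those labelled Control 1, 2 and 3. The groups overlapped, with the replicate 3 libraries lowest in both. The log2 fold change was 1.11 ± 0.71 (SE; 95% interval −0.52 to 2.73) and did not pass (edgeR adjusted p = 0.389, Benjamini-Hochberg), an interval too wide to tell a fall from a severalfold rise. It was 0.43 without the library labelled dKO 1.

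Krt16, the type I chain that is induced with Krt6 at wound edges, had higher values in dKO libraries but did not pass. The gene, at 100246091 to 100248902 on the minus strand of chromosome 11, had 388, 669 and 589 CPM in the libraries labelled dKO 1, 2 and 3, against 16.6, 227 and 166 CPM in those labelled Control 1, 2 and 3. The groups did not overlap, and the library labelled Control 1 was again the lowest. The means were 549 ± 145 CPM in dKO and 137 ± 108 CPM in Control libraries (SD, n = 3 each), a 4.02-fold difference of means. The log2 fold change was 2.01 ± 0.73 (SE; 95% interval 0.35 to 3.66; edgeR adjusted p = 0.127, Benjamini-Hochberg). Without the library labelled Control 1 it was 1.48 and passed, with an edgeR adjusted p of 0.0232.

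Krt17, the type I keratin that is already made in embryonic epidermis and hair placodes, had the smallest fold difference. The gene, at 100256217 to 100261029 on the minus strand of chromosome 11, had 941, 894 and 740 CPM in the libraries labelled dKO 1, 2 and 3, against 362, 558 and 679 CPM in those labelled Control 1, 2 and 3. The groups did not overlap, but the lowest dKO library and the highest Control library, both replicate 3, lay close together. The means were 858 ± 105 CPM in dKO and 533 ± 160 CPM in Control libraries (SD, n = 3 each). The log2 fold change was 0.69 ± 0.24 (SE; 95% interval 0.13 to 1.24) and did not pass (edgeR adjusted p = 0.118, Benjamini-Hochberg). With an offset for GC content and length, which shifted the median of all genes by −0.12 on the log2 scale, it was 0.33.

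**Figure D2:**
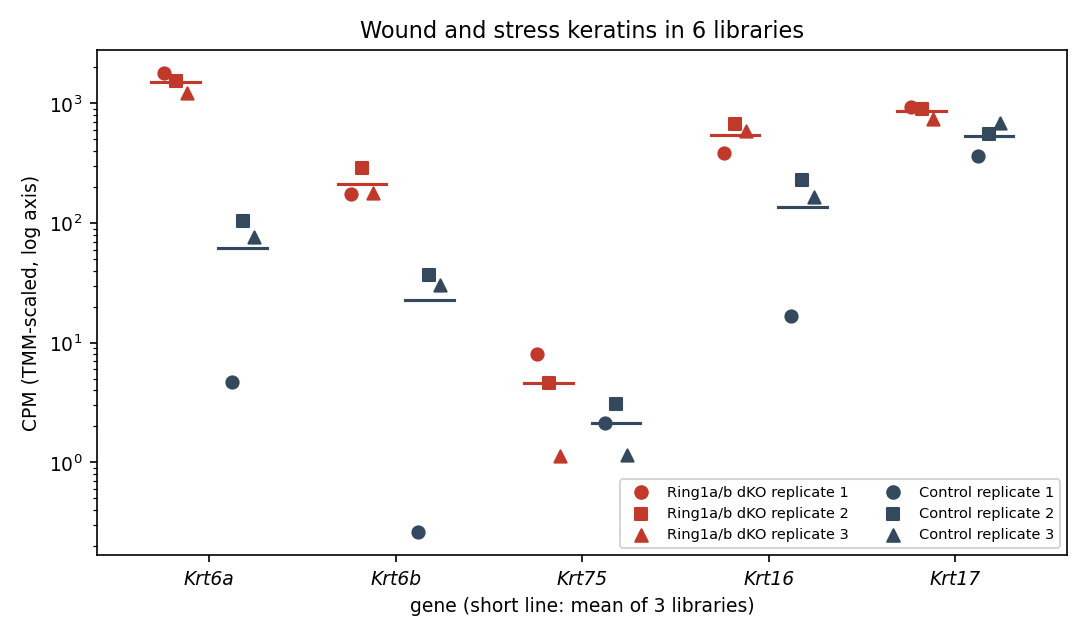
Expression of the 5 keratins in CPM (y axis, log scale) in each Ring1a/b dKO library (left of each pair) and Control library (right), with the replicate shown by the marker shape and the mean of 3 libraries by a short line. Krt6a separates the groups most, with a mean of 1513 CPM in dKO libraries against 61.7 CPM in Control libraries, whereas Krt75 overlaps, and the library labelled Control 1 is the lowest for 4 of the 5 genes.

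In 4 of the 5 genes the dKO values all lay above the Control values, as they did in 17.6% of all tested genes, and 1 of the 5 was called higher. The median log2 fold change of the 5 was 2.01, against 0.00 over all tested genes. Of all calls, 70.6% were higher in dKO libraries, or 51.5% with the GC and length offset. Without the library labelled Control 1, Krt6a, Krt6b and Krt16 were called higher (3 of 5), against 5.81% of all genes. With replicates 2 and 3 of each group alone, the same 3 were called higher, against 10.9% of all genes, with edgeR adjusted p-values of 7.6e-05 for Krt6a, 3.38e-04 for Krt6b and 6.35e-04 for Krt16, and of 0.103 for Krt17 and 0.769 for Krt75. Without the replicate 3 libraries, 0 of the 5 were called, against 2.37% of all genes called higher. The log2 fold changes were then 3.64 for Krt6b (edgeR adjusted p = 0.271) and 2.11 for Krt16 (edgeR adjusted p = 0.337). They were 0.99 for Krt17 (edgeR adjusted p = 0.168) and 1.26 for Krt75 (edgeR adjusted p = 0.398).

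Per kilobase of transcript, which sets aside transcript length, the order of the 5 keratins differed between the groups. Windows identical to another gene made up 34% of Krt6a, 30.6% of Krt6b and 24.3% of Krt16, and 0% of Krt17 and Krt75. If reads that match several genes were left out, Krt6a, Krt6b and Krt16 would read too low against Krt17 and Krt75. The orders between genes therefore hold only for reads as they were counted. In dKO libraries Krt6a led with 664 ± 124 CPM per kb, followed by Krt17 with 553 ± 67.7, Krt16 with 351 ± 92.4, Krt6b with 95.5 ± 28.8 and Krt75 with 1.41 ± 1.06 CPM per kb (SD, n = 3). In Control libraries Krt17 led with 344 ± 103 CPM per kb, followed by Krt16 with 87.3 ± 69.2, Krt6a with 27.1 ± 22.5, Krt6b with 10.1 ± 8.74 and Krt75 with 0.654 ± 0.297 CPM per kb. Krt6a exceeded Krt17 within each dKO library, at 785 against 607, 671 against 576 and 537 against 477 CPM per kb in those labelled dKO 1, 2 and 3. Within each Control library, Krt16 exceeded Krt6a, and Krt6a exceeded Krt6b.

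Together the 5 genes made up 0.306%, 0.347% and 0.284% of all counts in the libraries labelled dKO 1, 2 and 3, and 0.0386%, 0.0937% and 0.0955% in those labelled Control 1, 2 and 3. Krt6a held 54.2%, 45.2% and 44.8% of the 5 genes' counts in the libraries labelled dKO 1, 2 and 3, against 1.23%, 11.2% and 8.02% in those labelled Control 1, 2 and 3. Krt17 held 28.5%, 26.4% and 27.1% in the same dKO libraries, against 93.8%, 60.1% and 71.2% in the Control libraries. Krt17 thus held most of these counts in Control libraries, and Krt6a the largest share in dKO libraries, on a scale where longer transcripts weigh more. Per kb, summed type II over summed type I chains gave 1.01, 0.798 and 0.723 in the libraries labelled dKO 1, 2 and 3. The ratios were 0.0117, 0.125 and 0.0875 in those labelled Control 1, 2 and 3. By these counts type I chains exceeded type II chains in every library but the one labelled dKO 1. The excess was smaller in dKO than in Control libraries. Ratios near 1 could change side with how reads that match several genes were counted. Windows identical to another gene made up 34% of Krt6a and 0% of Krt17.

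**Figure D3:**
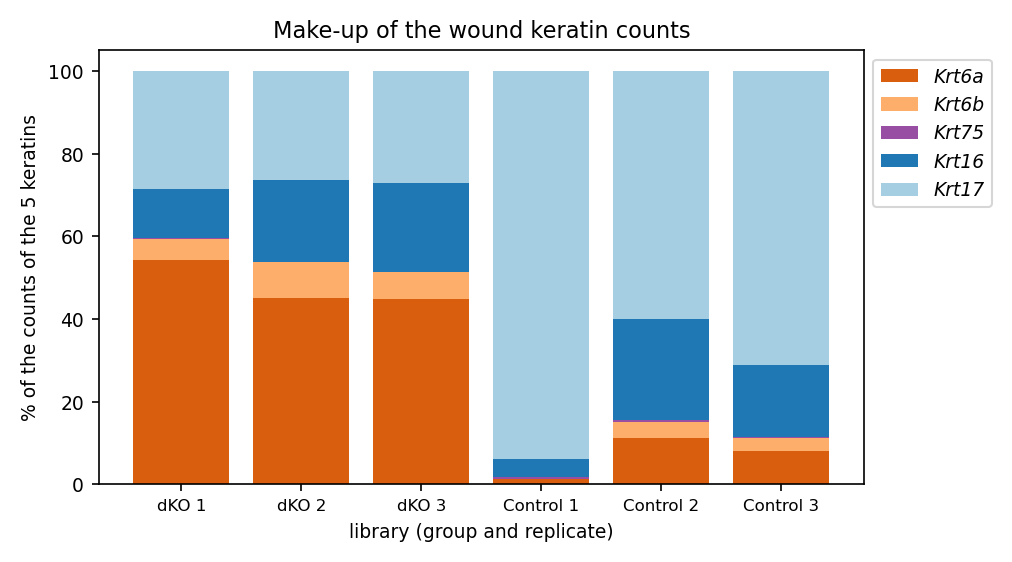
Percentage of the summed counts of the 5 keratins (y axis) that fell on each gene, for each library (x axis; dKO libraries left, Control libraries right). Krt6a takes 44.8% to 54.2% of the bar in dKO libraries and 1.23% to 11.2% in Control libraries, where Krt17 takes 60.1% to 93.8%.

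Against the basal keratins, the wound keratins stayed the minor set. Krt5 averaged 8156 ± 1017 CPM per kb in dKO and 10509 ± 2215 CPM per kb in Control libraries (SD, n = 3 each), and Krt6a was 8.10% ± 0.522 of it in dKO libraries and 0.244% ± 0.212 in Control libraries. Krt16 was 11% ± 1.24 of its type I counterpart Krt14, per kb, in dKO libraries and 1.90% ± 1.30 in Control libraries. These percentages too depend on how reads that match several genes were counted. Neither Krt5 (log2 fold change −0.37, edgeR adjusted p = 0.350) nor Krt14 (−0.32, edgeR adjusted p = 0.592) passed the test (Benjamini-Hochberg), although both share windows with members.

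The members sit in 2 clusters, type II on chromosome 15 and type I on chromosome 11, and called keratins beside them lay in both directions. Of the other 14 tested keratins in the type II cluster, 2 were called higher and 1 lower by edgeR, with 4 higher and 1 lower at an unadjusted p under 0.05. Over all tested genes edgeR called 7.17% higher and 2.98% lower. In the type II cluster DESeq2 and limma-voom each called 4 higher and 1 lower. Over all genes DESeq2 called 11% higher, and limma-voom called 7.35% higher and 3.22% lower. Of 8 in the type I cluster, edgeR called 0, with 1 higher and 1 lower at an unadjusted p under 0.05, while DESeq2 called 1 higher and 1 lower and limma-voom 1 higher; over all genes DESeq2 called 6.02% lower. Krt71, an inner root sheath keratin that starts 48.8 kb upstream of Krt6a, had 0.173, 1.08 and 0.390 CPM in the libraries labelled dKO 1, 2 and 3, against 4.09, 10.8 and 3.35 CPM in those labelled Control 1, 2 and 3. It was lower in every dKO library (log2 fold change −3.50, edgeR adjusted p = 0.0268, Benjamini-Hochberg). Krt79, a keratin of the sebaceous duct and upper follicle canal, rose to 448 ± 55.8 CPM in dKO libraries, against 27.3 ± 14.9 CPM in Control libraries (SD, n = 3 each; log2 fold change 4.03, edgeR adjusted p = 8.62e-04, Benjamini-Hochberg). Krt18, a simple epithelial keratin at the end of the type II cluster, was counted there by position, not by chain type. It had 67.5, 25.4 and 19.8 CPM in the libraries labelled dKO 1, 2 and 3. In those labelled Control 1, 2 and 3 it had 1.39, 0.481 and 0.684 CPM (log2 fold change 5.45, edgeR adjusted p = 0.00156). In the type I cluster, Krt42 beside Krt17 stayed at or under 1.30 CPM in every library.

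**Figure D4:**
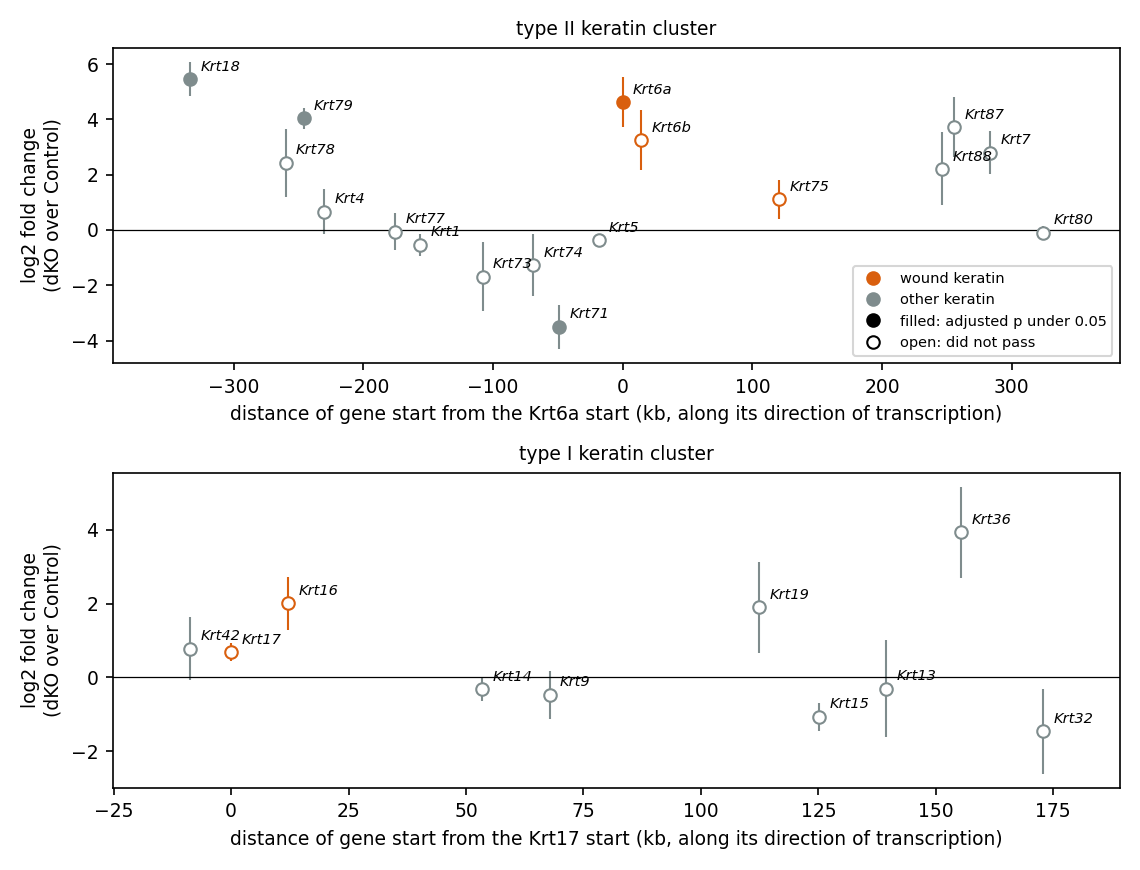
Log2 fold change of dKO over Control libraries with its SE (y axis) for each tested keratin gene, by the distance of its start from that of Krt6a (top, type II cluster) or Krt17 (bottom, type I cluster) in kb along the direction of transcription (x axis). Filled points passed the test. Krt6a at 4.62 stands between Krt5 at −0.37 and Krt6b at 3.24, and Krt71 on the far side of Krt5 is at −3.50.

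Among 10 keratins of normal epidermal layers, 9 were tested, with a median log2 fold change of −0.19. By edgeR, Krt79 was called higher and 0 lower, against 7.17% and 2.98% of all tested genes. Krt79 is the duct and follicle canal keratin named above, and it was the only edgeR call of the list. At an unadjusted p under 0.05, 1 was lower, and DESeq2 called 1 lower and limma-voom 0. Krt15, a basal keratin, had 569, 1625 and 1918 CPM in the libraries labelled dKO 1, 2 and 3, against 2732, 2750 and 3125 CPM in those labelled Control 1, 2 and 3. Its groups did not overlap, with dKO values all below Control values as in 14.8% of all tested genes. Krt15 did not pass (edgeR adjusted p = 0.126).

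Wound-associated genes other than keratins were read from a list of 30 genes, of which 26 were tested. Of these, 6 were called higher and 1 lower, against 7.17% and 2.98% of all tested genes, and 19 did not pass. The median log2 fold change was 1.23. Sprr1a, a cornified envelope precursor, had 2062, 612 and 434 CPM in the libraries labelled dKO 1, 2 and 3, against 59.7, 55.2 and 35.8 CPM in those labelled Control 1, 2 and 3 (log2 fold change 4.37, edgeR adjusted p = 0.00329, Benjamini-Hochberg). Gjb2, the gap junction protein connexin 26, was at 280 ± 154 CPM in dKO and 35.8 ± 6.93 CPM in Control libraries (SD, n = 3 each; log2 fold change 2.97, edgeR adjusted p = 0.00227). Tgfa, a ligand of the EGF receptor, was at 308, 73.9 and 63.5 CPM in the libraries labelled dKO 1, 2 and 3, against 10.8, 21.8 and 13.6 CPM in those labelled Control 1, 2 and 3 (log2 fold change 3.27, edgeR adjusted p = 0.0133). These 3 genes were highest in the library labelled dKO 1, and no dKO value overlapped a Control value.

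The other 3 that rose were Sprr1b, a cornified envelope precursor, Ereg, another EGF receptor ligand, and S100a9, a calcium-binding alarm protein. S100a9 was scarce, at 6.30, 3.96 and 2.18 CPM in the libraries labelled dKO 1, 2 and 3. It was at 1.09, 0.481 and 0.650 CPM in those labelled Control 1, 2 and 3. S100a8, also on the list, overlapped between the groups and did not pass (log2 fold change 1.09, edgeR adjusted p = 0.618). The 1 that fell was Stfa3, a cysteine protease inhibitor of the stefin A group, at 116, 259 and 144 CPM in the libraries labelled dKO 1, 2 and 3, against 414, 656 and 750 CPM in those labelled Control 1, 2 and 3 (log2 fold change −1.81, edgeR adjusted p = 0.0121). The inflammatory cytokines of the list did not pass. Il1a was at 2.60 CPM in dKO and 1.78 CPM in Control libraries on average, and Il1b at 1.58 CPM in dKO and 3.33 CPM in Control libraries. The count of genes called higher was 2 without the library labelled Control 3, where 4.12% of all genes were called higher, 3 with replicates 1 and 2 alone (2.37% of all genes) and 10 with replicates 2 and 3 alone (10.9%). By tool it was 11 in DESeq2, against 11% of all genes, and 5 in limma-voom, against 7.35%.

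Of 28 genes listed for regulating these keratins, 27 were tested, with a median log2 fold change of −0.38. Of these, 1 was called higher and 4 lower, against 7.17% and 2.98% of all tested genes. Sox11, a factor of embryonic epidermis, had 44.2, 14.8 and 12.1 CPM in the libraries labelled dKO 1, 2 and 3, against 1.16, 0.568 and 0.924 CPM in those labelled Control 1, 2 and 3 (log2 fold change 4.73, edgeR adjusted p = 0.00231, Benjamini-Hochberg). Every dKO library was above every Control library. Lef1, a Wnt pathway factor, was lower, at 120 ± 20.9 CPM in dKO and 259 ± 61.0 CPM in Control libraries (SD, n = 3 each; log2 fold change −1.12, edgeR adjusted p = 0.0145). Trp63, the master factor of stratified epithelium, was at 1016 ± 108 CPM in dKO and 1760 ± 30.4 CPM in Control libraries (log2 fold change −0.79, edgeR adjusted p = 0.0176). The glucocorticoid receptor Nr3c1, which represses wound keratin genes in cultured human keratinocytes, was at 77.3 ± 21.3 CPM in dKO and 149 ± 20.4 CPM in Control libraries (log2 fold change −0.95, edgeR adjusted p = 0.0347).

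The 4th that fell was Gli2, a hedgehog effector (log2 fold change −1.01, edgeR adjusted p = 0.0369). The other 22 tested did not pass, and their signs were mixed. Jun, an AP-1 subunit, had 277, 256 and 149 CPM in the libraries labelled dKO 1, 2 and 3, against 950, 460 and 339 CPM in those labelled Control 1, 2 and 3 (log2 fold change −1.36, edgeR adjusted p = 0.0636, Benjamini-Hochberg). Its groups did not overlap, nor did those of Fos, another subunit (log2 fold change −0.68, edgeR adjusted p = 0.115). In 14.8% of all tested genes the dKO values all lay below the Control values. Fosl1, an AP-1 subunit of the Fos family, had a positive log2 fold change of 1.71 (edgeR adjusted p = 0.373), with 60.2 CPM in the library labelled dKO 1 and at most 14.6 CPM in each of the other 5. Nfe2l2, the oxidative stress factor NRF2, was at 0.36 (edgeR adjusted p = 0.411). The count of regulators called lower by edgeR was 0 without the library labelled dKO 2, against 1.13% of all genes in that fit, and 0 with replicates 1 and 2 alone, against 0.57%; in either case 7 had an unadjusted p under 0.05. It was 10 with replicates 2 and 3 alone, against 7.1% of all genes, and 8 with the GC and length offset, against 5.72%.

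**Figure D5:**
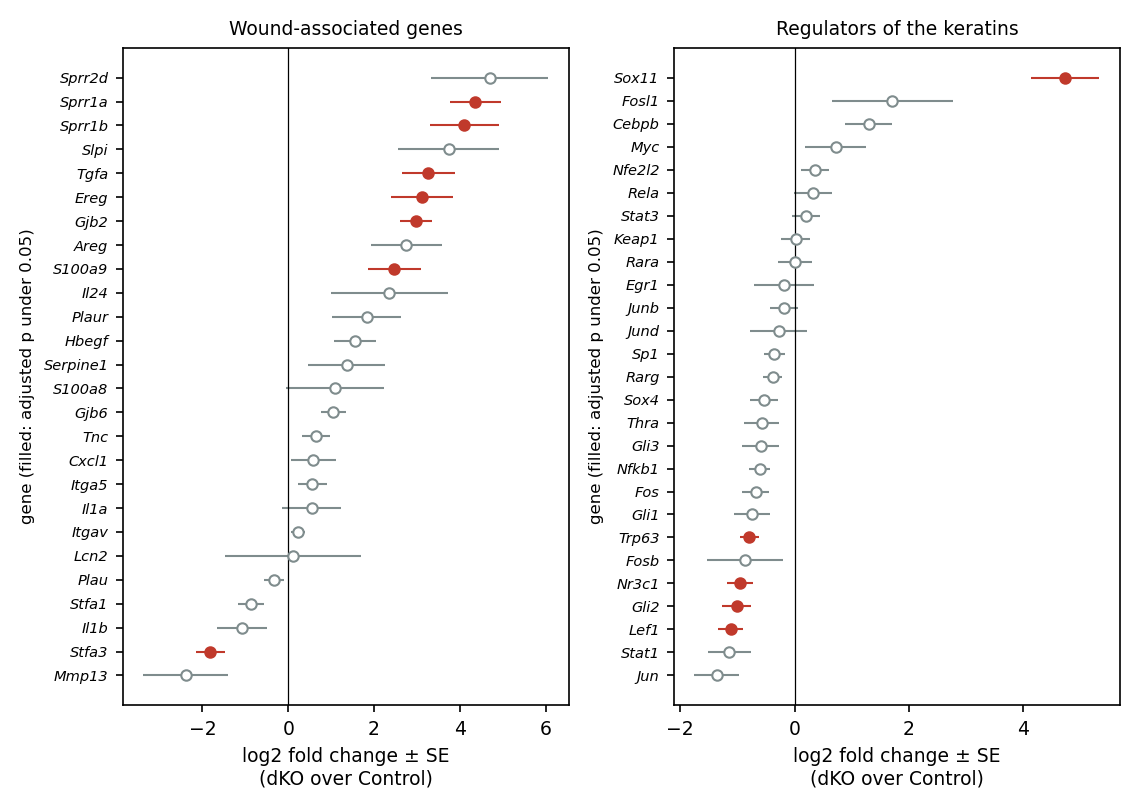
Log2 fold change of dKO over Control libraries with its SE (x axis) for the tested wound-associated genes (left) and regulators of the keratins (right), ordered by fold change (y axis); filled points passed the test. The wound-associated genes lie mostly to the right of 0, with a median of 1.23, and the regulators mostly to its left, with a median of −0.38 and Sox11 apart at 4.73.

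Since wound keratins are also hair follicle keratins, markers of other cell types were set beside them. The summed CPM of 24 hair follicle markers was 746 to 1195 in dKO and 602 to 1178 in Control libraries, with Cux1 the most abundant. Of 17 tested, Krt85 was called higher and Krt25, Krt27 and Krt71 lower, against 7.17% and 2.98% of all tested genes. The count of these markers called lower was 1 without the library labelled dKO 1, dKO 3 or Control 2, where 1.6% to 2.85% of all genes were called lower. The count called higher was 0 by edgeR without that labelled dKO 1, dKO 2, dKO 3 or Control 3, with 2 to 4 higher at an unadjusted p under 0.05. It was 3 without that labelled Control 1. Over all genes, 4.12% to 6.26% were called higher in these fits. Krt25, of the inner root sheath, was at 0 in all dKO libraries, where a count of 0 allows up to 0.0975 to 0.154 CPM, and at 4.31, 14.1 and 4.79 CPM in those labelled Control 1, 2 and 3. The library labelled Control 1 was the lowest for Krt6a, Krt6b, Krt16 and Krt17. It was the highest for the placode and progenitor genes Shh at 14.5 CPM and Lgr5 at 17.1 CPM. It was also the highest for Gata3 at 306 CPM and Dlx3 at 110 CPM, but the lowest for Msx2 at 6.49 CPM. Sox9 was highest in the library labelled dKO 1, at 460 CPM, and Krt25, Krt27 and Krt71 in that labelled Control 2. The library labelled Control 1 was the lowest for Ly6a, which encodes the Sca1 of the sort, at 15.1 CPM. The other 5 libraries had 48.8 to 63.5 CPM of Ly6a. The part of follicle cells in the wound keratin values was not tested.

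Of 6 markers of periderm and simple epithelium, 5 were tested and Krt18 was called higher, against 7.17% of all tested genes. The summed CPM of the 6 was 194 to 278 in dKO and 11.9 to 71.6 in Control libraries. Most of it was Krt7, at 121, 233 and 255 CPM in the libraries labelled dKO 1, 2 and 3, against 7.13, 69.6 and 11.5 CPM in those labelled Control 1, 2 and 3 (log2 fold change 2.79, edgeR adjusted p = 0.0587), while Krt8 stayed at or under 1.97 CPM in every library. Of 7 Merkel cell markers, all 4 tested were called higher (Isl1, Sox2, Piezo2 and Krt18), against 7.17% of all tested genes. The summed CPM of the 7 was 54.4 to 104 in dKO and 4.85 to 10.1 in Control libraries. Most of it was Piezo2 and Krt18, and Krt18 is also the gene called in the periderm and simple epithelium list. Piezo2 had 26.7, 23.8 and 26.7 CPM in the libraries labelled dKO 1, 2 and 3. In those labelled Control 1, 2 and 3 it had 6.98, 4.24 and 8.76 CPM. Isl1 and Sox2 were at 0 in all Control libraries, where a count of 0 allows up to 0.103 to 0.131 CPM, and the defining Merkel genes Atoh1 and Krt20 stayed at or under 2.18 CPM in every library. Their part in the wound keratin values was not tested.

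The lists for melanocytes, fibroblasts, immune cells and endothelium had 0 members called by edgeR in either direction, against 10.2% of all tested genes. At an unadjusted p under 0.05, 2 melanocyte genes were higher, 1 fibroblast gene was higher and 1 lower, and 0 immune or endothelial genes passed; DESeq2 called 2 melanocyte genes higher, and limma-voom called 0 in all these lists. The fibroblast sum, led by Dcn, was 530 to 820 CPM in dKO and 331 to 948 CPM in Control libraries, and the immune sum, led by Cd74, was 52.0 to 181 CPM in dKO and 104 to 232 CPM in Control libraries. Of 8 basal epidermis markers, Col17a1 and Trp63 were called lower, against 2.98% of all tested genes. Of 8 suprabasal markers, Krtdap and Grhl3 were called higher, against 7.17%. The count of basal markers called lower was 0 by edgeR without the library labelled dKO 2, dKO 3, Control 2 or Control 3. At an unadjusted p under 0.05, 2 basal markers were lower each time. In the same 4 fits 1 suprabasal marker was called higher. Over all genes those fits called 1.13% to 1.75% lower and 4.12% to 5.27% higher. Epcam, a basal marker of the sort, was at 381, 216 and 207 CPM in the libraries labelled dKO 1, 2 and 3. It was at 168, 131 and 116 CPM in those labelled Control 1, 2 and 3. Its dKO values all lay above its Control values, as in 17.6% of all tested genes. Epcam did not pass (log2 fold change 0.95, edgeR adjusted p = 0.0598). DESeq2 called 1 basal marker higher, against 11% of all genes, and limma-voom 0. Of the labelled basal identity, Krt5 was at 15665 CPM or more and the sort marker Itga6 at 857 CPM or more in every library. Suprabasal keratins were present too, Krt1 at 1300 ± 627 CPM in dKO and 1886 ± 630 CPM in Control libraries and Krt10 at 1143 ± 713 CPM in dKO and 1301 ± 732 CPM in Control libraries (SD, n = 3 each).

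Likeness of pattern was measured as the root mean square difference of log2 CPM, centred over the 6 libraries, from genes with a mean of at least 5 CPM; it is a description, and genes that share libraries are not independent. Krt6a and Krt6b differed by 0.91, Krt75 and Krt17 also by 0.91, and Krt6b and Krt75, the least alike, by 3.15. The genes nearest to Krt6a were Sprr1b at 0.54, Podn at 0.61 and Dock3 at 0.64, and those nearest to Krt6b were Sprr1b at 0.92, Podn at 0.98 and Ccdc102a at 1.08. Sprr1b had 39.2, 80.2 and 58.2 CPM in the libraries labelled dKO 1, 2 and 3, against 0.263, 5.51 and 4.58 CPM in those labelled Control 1, 2 and 3, with the same lowest library as Krt6a. The genes nearest to Krt16 were Srxn1 at 0.28, Grk3 at 0.30 and Stfa2 at 0.36, those nearest to Krt17 were Ciapin1 at 0.067, Nhp2 at 0.073 and Klhdc4 at 0.076, and those nearest to Krt75 were Nle1 at 0.38, Mdfi at 0.44 and Dfna5 at 0.46. Stfa2, another stefin, was called higher (log2 fold change 2.44, edgeR adjusted p = 0.0330, Benjamini-Hochberg), against the fall of Stfa3.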

How the data were processed

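Read counts per gene were deposited by the authors, 1 table per library, and are not normalized. Per the labels' protocols, total RNA was amplified to cDNA and sequenced as single reads of 100 bases. The submitters' processing notes name TopHat2 2.0.13, Cufflinks 2.2.1, HTSeq 0.6.1, DESeq2 1.6.3 and the mm10 build, with no role or annotation.

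Samples were grouped by the genotype label, 3 libraries of each. Genes were kept with edgeR's filter (minimum count 10, minimum total 15) and scaled by trimmed mean of M values. Groups were compared with edgeR 4.0.16 (R 4.3.3), by its quasi-likelihood F test, two-sided and adjusted by Benjamini-Hochberg over 14890 genes; a gene was called at an adjusted p under 0.05. Fold changes use a prior count of 0.125. SE is the fold change over the root of F. Libraries differed by at least 28.6 chi-square per degree of freedom, so none was counted as a repeat deposit. Depth, at 18951665 counts or more, puts 3 counts at 0.0975 to 0.154 CPM. Scripts were tested on simulated data. Sequences were read from GRCm38 with GENCODE M21, of the same assembly as mm10, and aligned with Biopython 1.88. RefSeq promoters are not used here.

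All 5 keratins are named. Of each list, the 3 called genes with the smallest p in each direction and its most abundant marker were named. So were the 3 most alike genes of each keratin. Of the other keratins in the type I and type II clusters only some were named, not always those nearest to a member. Il1a, Il1b, Nfe2l2, Jun, Fos, Fosl1, Gli2, Shh, Lgr5, Gata3, Dlx3, Msx2, Sox9 and the remaining called genes were chosen after their values were seen. So were Krt15, Ly6a, Epcam and S100a8. The members and lists were chosen with earlier results of these data known. The alternatives tried were 18, among them DESeq2 1.42.0, limma-voom (limma 3.58.1), other scalings and filters, a replicate block, an Xist covariate, a GC and length offset (mgcv 1.9.3) and leaving out libraries.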

Additional observations from a re-analysis of the deposited data

How the results depend on the processing

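The biological coefficient of variation over all genes was 38.3%, which with 3 libraries a group limits what could be called. Per gene it was 64.5% for Krt6a, 85.8% for Krt6b, 61.1% for Krt75, 58.3% for Krt16 and 23.7% for Krt17. The 7 counts of Krt6b in the library labelled Control 1 limit its fold change. Across 18 alternatives, 0 of the fold changes of the 5 keratins reversed, and Krt75 and Krt17 stayed on their side of the threshold in all 18. Krt6a ranged from 3.93 to 5.50 on the log2 scale, from 4.07 to 5.22 when 1 library was left out. It no longer passed without the library labelled Control 3 (4.80, edgeR adjusted p = 0.0523) or with replicates 1 and 2 alone (4.92, edgeR adjusted p = 0.0798). With replicates 2 and 3 alone, a fit of as many libraries, it passed (3.93, edgeR adjusted p = 7.6e-05). Krt6b, 2.66 to 3.78 with 1 library left out, passed without a count filter (3.24, edgeR adjusted p = 0.0409), in limma-voom (4.95, adjusted p = 0.0377), without the library labelled Control 1 (2.66) and with replicates 2 and 3 alone (2.79, edgeR adjusted p = 3.38e-04). Krt16, 1.48 to 2.58 with 1 library left out, passed with the replicate block (2.57), without the library labelled Control 1 (1.48) and with replicates 2 and 3 alone (1.68).

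The sum of Krt6a and Krt6b, 3.80 to 4.94 with 1 library left out, no longer passed without the library labelled dKO 2 (4.32, edgeR adjusted p = 0.0552), without that labelled Control 3 (4.56, edgeR adjusted p = 0.0706), with replicates 1 and 2 alone (4.69, edgeR adjusted p = 0.102) or with the Xist covariate (4.20, edgeR adjusted p = 0.0602). The causes were not tested. The count of genes called, 1512, was 2535 in DESeq2, 2694 from replicates 2 and 3 only, 439 from replicates 1 and 2 only, 810 with the Xist covariate, and 811 to 1393 with 1 library left out.

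The replicate numbers were not taken as pairs: deviations of same-numbered libraries correlated at 0.175, 0.228 and 0.0773 (replicates 1, 2 and 3), although each library correlated best with its own number. With the replicate block, 1451 genes were called, the log2 fold change was 5.17 for Krt6a (edgeR adjusted p = 0.0225), 4.05 for Krt6b (edgeR adjusted p = 0.0716), 0.83 for Krt75 (edgeR adjusted p = 0.404), 2.57 for Krt16 (edgeR adjusted p = 0.0397), 0.73 for Krt17 (edgeR adjusted p = 0.125) and 4.98 for the sum (edgeR adjusted p = 0.0299).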
